A study of Mus musculus with 6 samples.

Results

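The genes described here are those that load the replicative helicase onto DNA, copy the genome, supply its nucleotides and rebuild chromatin behind the fork. A list of 44 such genes was matched to the array's probe sets by gene ID or gene name, and each gene was represented by its brightest probe set among those called Present on at least 3 of 6 arrays, Present being a detection call the authors deposited for each probe set. Of the 44 listed genes, 42 had such a probe set, out of 11899 genes tested in the series. Orc1, the largest subunit of the origin recognition complex, had none, and Chaf1a, the large subunit of the chromatin assembly factor, was not analysed here.

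RNA came from conjunctival epithelium of Spdef -/- mice (3 arrays) and of Spdef +/+ mice (3 arrays), all C57BL/6 and 8 weeks old. Spdef is a transcription factor of the ETS family that goblet cells need, and the comparison asked whether its absence altered gene expression in this epithelium. Each array held tissue of 2 animals, a male and a female that gave 1 eye each, captured by laser from the part of the epithelium nearest the fornix, the fold where eyelid and eyeball meet. The sources used here do not say how the Spdef -/- allele was made. The labels call the samples of a genotype biological replicates, so the spread between arrays holds differences between pools of animals, but single animals cannot be told apart.

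Before a cell divides it copies its DNA once. In G1 the origin recognition complex, Cdc6 and Cdt1 load the hexameric MCM2-7 ring onto DNA, a step called licensing, and at the start of S phase Cdc45 and the GINS complex join the ring and turn it into a moving helicase. Polymerases, the sliding clamp Pcna with its loader RFC, single-strand binding protein RPA, the flap nuclease Fen1 and DNA ligase Lig1 then copy both strands, and many of these genes are transcribed by E2F factors as cells leave G1. In conjunctival and other surface epithelia, dividing cells lie mostly in the basal layer, and they replace the goblet and stratified cells that are shed.

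The targeted gene was checked first. Spdef read 1.00, 3.62 and 2.94 on the Spdef -/- arrays, with Absent calls on each, against 801, 689 and 587 on the Spdef +/+ arrays (adjusted p = 0.000152, limma with Benjamini-Hochberg adjustment over all tested genes, the test used throughout). Nothing in the sources says whether its probes fall inside the deletion. Signals are linear dChip units, folds are differences of mean log2 signals turned back to ratios, Spdef -/- over Spdef +/+, and a gene is said to be higher or lower where its adjusted p was under 0.05. Between 23290 and 23370 probe sets were called Present on the Spdef -/- arrays, against 24589 to 24833 on the Spdef +/+ arrays. The goblet cell markers, defining for this epithelium, were lower in Spdef -/- mice in 6 of 6 cases, beside 24.0% of all tested genes. Spdef itself is among the 6, so its part in that count was given by the design. Summed signals, Spdef included, were 3293 to 4011 on the Spdef -/- arrays and 32030.0 to 36799 on the Spdef +/+ arrays. Markers of basal epithelium were all detected in both genotypes.

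Most replication genes were higher in Spdef -/- conjunctival epithelium. Of the 42 tested, 38 were higher and 0 lower, beside 15.8% of all tested genes that were higher and 24.0% that were lower. The 4 not called were Mcm8, Rfc1, Rfc3 and E2f1. In 40 of the 42 genes every Spdef -/- array lay above every Spdef +/+ array, beside 22.6% of all tested genes, and in Rfc1 and E2f1 the groups overlapped. The differences were often more than 2-fold, with 25 genes called at that size or more, beside 4.15% of all tested genes. Of the 25, 9 were at 3-fold or more, a size for which no share of all tested genes is given here. The median fold of the 42 was 2.20, against 0.959 over all tested genes. The largest differences were in Rrm2 (4.69-fold), Uhrf1 (4.09-fold) and Mcm5 (4.06-fold). With each array centred on its bacterial control probe sets, a setting added after the data were seen, 29 of the 42 were higher, and Orc6, Gins3, Gins4, Pold1, Rfc2, Rpa1, Rpa2, Rpa3 and Dut lost their calls.

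Detection calls decided in part which genes were tested. Mcm10, Cdc45 and Gins2 were Present on all Spdef -/- arrays and on none of the Spdef +/+ arrays, so they passed the filter only through the group in which they were high. Counting only the 36 listed genes called Present on all 6 arrays, 33 were higher and 0 lower, beside 15.5% higher among the 10178 genes of the series detected that widely. RNA was taken from a tissue of mixed cells, so a larger share of cycling cells and more of these transcripts per cell cannot be told apart.

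**Figure D1:**
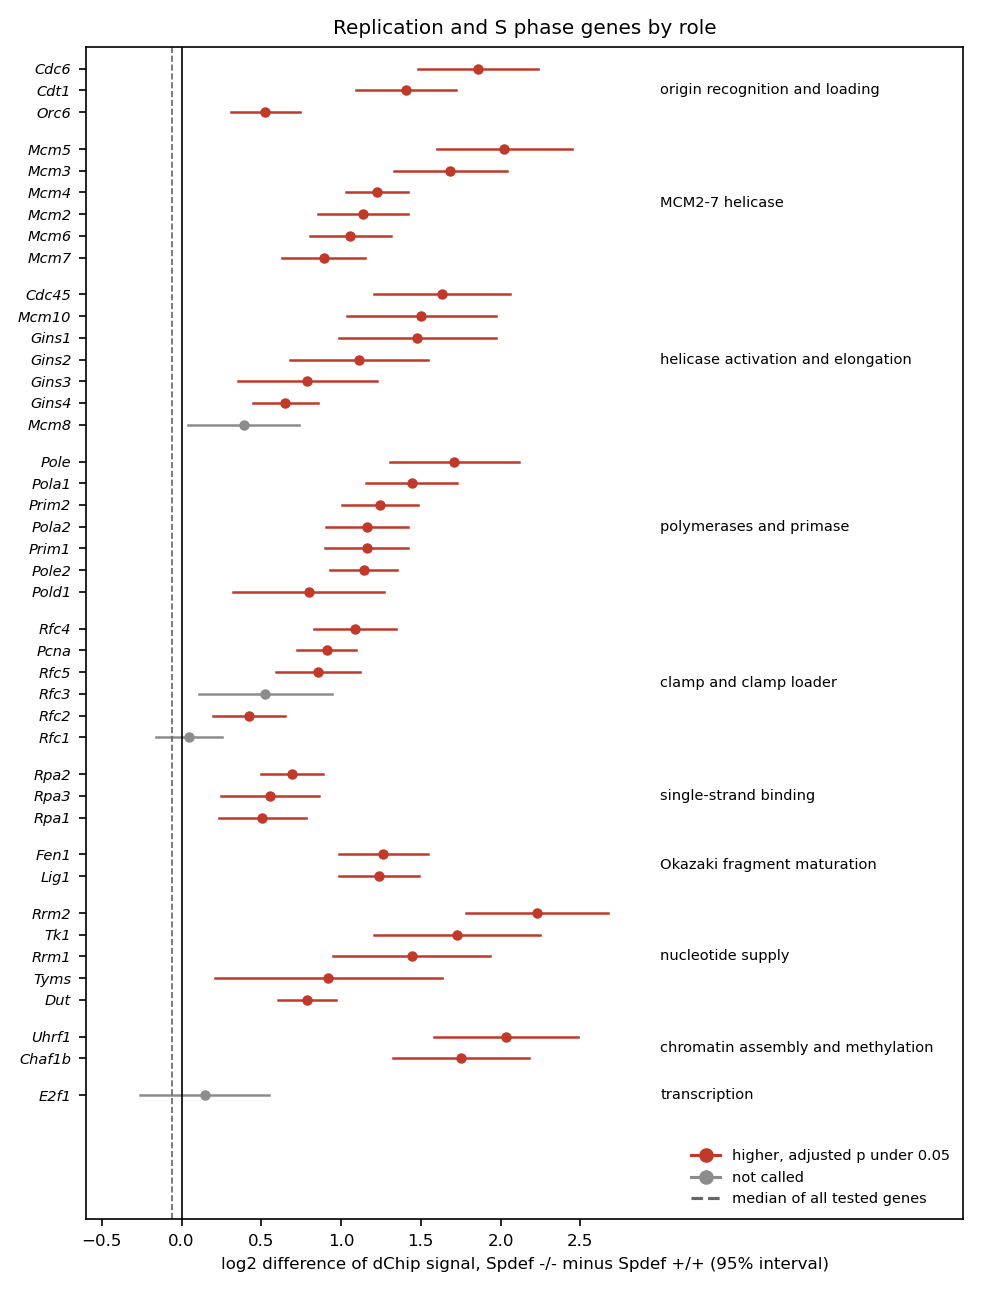
Log2 difference of signal, Spdef -/- minus Spdef +/+, of each tested replication and S phase gene (points) with its 95% interval (lines), grouped by role, n = 3 arrays per genotype. The 38 red genes passed the threshold, the 4 grey genes did not, and the dashed line marks the median of all tested genes at -0.06 on the log2 scale.

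Promoters were searched for letters that the choice of genes did not use, with motifs picked for being known from genes of this kind. RefSeq promoter windows of assembly GRCm38.p6, from 250 bases before to 50 after a gene's start, were found for 35 of the 42 tested genes. They were searched on both strands for the E2F forms TTTCCCGC, TTTCGCGC, TTTGCCGC and TTTGGCGC, whose matches may overlap each other. At least 1 match was found in 14 of the 35 genes (40.0%), beside 435 of 9524 tested genes with a window (4.57%). At least 2 matches were found in 5 of the 35 (14.3%), beside 0.21% of tested genes, and 4 of these 5 encode MCM2-7 subunits. The fifth was Rfc3, which was not called. A CCAAT box, searched in both orientations, stood in 21 of the 35 (60.0%), beside 42.8% of tested genes.

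To show these letters, 7 windows chosen after the values were seen are printed, with each E2F match in capitals and the strand given as transcribed. The first 4 are the MCM2-7 promoters with more than 1 match, of Mcm3 (chr1:20820263-20820562, minus strand), Mcm5 (chr8:75109259-75109558, plus strand), Mcm6 (chr1:128359656-128359955, minus strand) and Mcm7 (chr5:138171834-138172133, minus strand). Mcm7 has another window in the table with no match. In Mcm5 and Mcm6, 2 of the matches overlap and form 1 longer run of capitals. The other 3 windows are of Cdc6 (chr11:98907901-98908200, plus strand), with 1 match, of Rrm2 (chr12:24708004-24708303, plus strand), with the largest difference and no match, and of Rfc1 (chr5:65335590-65335889, minus strand), with the smallest difference and no match.
Mcm3: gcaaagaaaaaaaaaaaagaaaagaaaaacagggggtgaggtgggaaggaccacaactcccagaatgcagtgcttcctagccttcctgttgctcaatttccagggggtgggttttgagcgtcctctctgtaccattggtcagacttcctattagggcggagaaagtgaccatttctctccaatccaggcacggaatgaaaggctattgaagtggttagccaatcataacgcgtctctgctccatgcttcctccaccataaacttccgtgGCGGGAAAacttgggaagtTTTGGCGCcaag
Mcm5: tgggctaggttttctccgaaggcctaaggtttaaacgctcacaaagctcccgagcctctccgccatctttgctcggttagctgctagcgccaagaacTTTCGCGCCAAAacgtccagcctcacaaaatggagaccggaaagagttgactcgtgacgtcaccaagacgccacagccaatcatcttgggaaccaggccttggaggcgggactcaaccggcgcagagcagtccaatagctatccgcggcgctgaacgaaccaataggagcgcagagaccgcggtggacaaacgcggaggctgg
Mcm6: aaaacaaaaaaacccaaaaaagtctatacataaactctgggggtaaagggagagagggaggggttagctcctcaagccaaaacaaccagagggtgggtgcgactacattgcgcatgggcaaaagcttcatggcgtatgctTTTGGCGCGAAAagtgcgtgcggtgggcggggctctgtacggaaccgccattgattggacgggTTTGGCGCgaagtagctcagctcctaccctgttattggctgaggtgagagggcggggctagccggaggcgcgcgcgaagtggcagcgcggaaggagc
Mcm7: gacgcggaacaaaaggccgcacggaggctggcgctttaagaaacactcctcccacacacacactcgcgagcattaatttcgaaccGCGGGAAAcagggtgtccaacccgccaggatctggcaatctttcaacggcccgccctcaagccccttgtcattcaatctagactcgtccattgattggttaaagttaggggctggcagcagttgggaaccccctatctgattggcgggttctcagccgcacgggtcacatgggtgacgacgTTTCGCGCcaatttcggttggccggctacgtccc
Cdc6: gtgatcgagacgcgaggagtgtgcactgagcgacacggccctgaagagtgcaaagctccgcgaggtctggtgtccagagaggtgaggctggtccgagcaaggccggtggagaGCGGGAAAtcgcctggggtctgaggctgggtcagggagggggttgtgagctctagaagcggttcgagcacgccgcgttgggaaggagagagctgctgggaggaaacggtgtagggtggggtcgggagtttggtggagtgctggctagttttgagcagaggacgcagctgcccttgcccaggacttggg
Rrm2: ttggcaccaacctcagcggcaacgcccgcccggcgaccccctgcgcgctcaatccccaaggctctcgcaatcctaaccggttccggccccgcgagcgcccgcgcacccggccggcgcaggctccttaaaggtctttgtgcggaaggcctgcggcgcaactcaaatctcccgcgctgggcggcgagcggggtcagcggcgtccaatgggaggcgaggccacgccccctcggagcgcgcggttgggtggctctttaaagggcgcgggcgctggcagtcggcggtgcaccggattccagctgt
Rfc1: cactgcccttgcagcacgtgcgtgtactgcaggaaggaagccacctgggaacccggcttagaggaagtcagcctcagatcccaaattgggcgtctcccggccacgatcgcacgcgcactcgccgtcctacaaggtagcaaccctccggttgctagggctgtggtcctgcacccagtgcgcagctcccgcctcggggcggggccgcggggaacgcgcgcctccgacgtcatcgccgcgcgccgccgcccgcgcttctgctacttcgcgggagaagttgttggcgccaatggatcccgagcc

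Matches were found in genes with large and with small differences. Among genes with a window that were at least 2-fold higher, 9 of 20 held a match (45.0%), and among the other tested genes of the list 5 of 15 did (33.3%). All 5 nucleotide supply genes, Rrm2 and Tk1 among them, had windows with no match. Of the 17 mitotic genes with a window, 5.88% held an E2F match, close to all tested genes, while 88.2% held a CCAAT box. No match says only that these letters were not in this window.

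**Figure D2:**
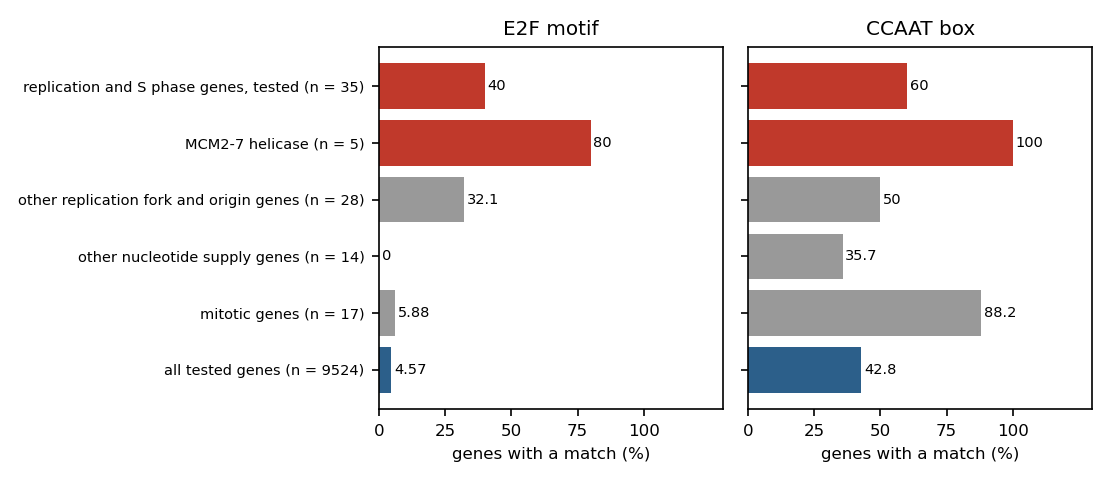
Share of genes, in percent, whose RefSeq promoter window holds at least 1 E2F match (left) or CCAAT box (right), for the tested replication and S phase genes and MCM2-7 (red), other gene lists (grey) and all tested genes (blue), with the number of genes with a window. The E2F share is 40.0% in the tested replication genes and 4.57% in all tested genes.

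Genes of origin recognition and helicase loading were higher in 3 of 3 cases. Cdc6, the ATPase that joins the origin complex in G1 and helps close the MCM ring around DNA, read 136, 160.1 and 145 on the Spdef -/- arrays, against 32.5, 48.4 and 42.2 on the Spdef +/+ arrays. Its lowest Spdef -/- array was well above its highest Spdef +/+ array, and the difference was 3.63-fold (95% interval 2.80 to 4.70, adjusted p = 0.000535). Cdt1 escorts the MCM ring to the origin and is destroyed or blocked by geminin once S phase starts. It had signals of 803, 836 and 1001 in Spdef -/- mice and 294, 378 and 326 in Spdef +/+ mice (2.65-fold, adjusted p = 0.000711). Orc6, the smallest subunit of the origin complex, was less raised, at 365, 357 and 395 in Spdef -/- against 237, 264 and 275 in Spdef +/+ epithelium (1.44-fold, adjusted p = 0.00543), without overlap.

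Orc1 could not be tested because neither of its probe sets was Present on 3 arrays. One of them read 61.8, 43.9 and 69.7 on the Spdef -/- arrays and 31.8, 38.1 and 32.2 on the Spdef +/+ arrays, with no Present call. The other, Present on 2 Spdef -/- arrays, read 23.4, 47.2 and 50.03 in Spdef -/- and 17.5, 26.9 and 19.1 in Spdef +/+ mice. The groups were apart in the first and overlapped in the second.

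All 6 subunits of the MCM2-7 ring, the motor of the replication fork, were higher, by 1.85-fold to 4.06-fold. Mcm5 led, with signals of 1341, 1551 and 1799.6 in Spdef -/- mice against 307, 460.4 and 395 in Spdef +/+ mice (4.06-fold, 95% interval 3.03 to 5.45, adjusted p = 0.000588). Mcm3 followed with 543, 607 and 690.1 in Spdef -/- and 158, 218 and 199 in Spdef +/+ mice (3.21-fold, adjusted p = 0.000594). In both, the Spdef -/- arrays lay more than 2-fold above the highest Spdef +/+ array, and a second probe set of Mcm5 gave 3.77-fold. Mcm4, part of the catalytic core with Mcm6 and Mcm7, had 923, 956 and 1021 in Spdef -/- and 397, 436 and 407 in Spdef +/+ epithelium (2.34-fold, adjusted p = 0.00023). Mcm2, which also carries parental histones, had 882, 931 and 1058 in Spdef -/- mice, against 386, 483 and 437 in Spdef +/+ mice (2.20-fold, adjusted p = 0.000945).

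Mcm6 and Mcm7 showed the smaller differences within the ring. Mcm6 averaged 1121 ± 15.96 in Spdef -/- mice and 541 ± 66.1 in Spdef +/+ mice (SD, n = 3 each), a difference of 2.08-fold (adjusted p = 0.000902). Mcm7, whose intron carries a microRNA cluster, averaged 2051 ± 196 in Spdef -/- and 1106 ± 103 in Spdef +/+ mice (1.85-fold, 95% interval 1.55 to 2.22, adjusted p = 0.00161). The intervals of Mcm5 and Mcm7 do not overlap each other. A difference between subunits was not tested.

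Genes grouped here under helicase activation and elongation were higher in 6 of 7 cases, beside 15.8% of all tested genes. The 7 include Mcm8, which is no part of the licensing ring. Of the 6, Cdc45, Mcm10 and Gins2 passed the filter through the Spdef -/- arrays alone. Cdc45, which bridges the ring and GINS, was Present on no Spdef +/+ array. It read 95.2, 120 and 119.7 in Spdef -/- mice against 28.6, 43.9 and 36.5 in Spdef +/+ mice, a fitted difference of 3.10-fold (95% interval 2.31 to 4.17, adjusted p = 0.00115). Mcm10, a firing factor that is no MCM ring subunit, had 109, 124 and 143 in Spdef -/- and 33.8, 54.8 and 45.8 in Spdef +/+ epithelium, a fitted 2.83-fold (95% interval 2.05 to 3.92, adjusted p = 0.00199), and was Present on no Spdef +/+ array either. In both genes the fold rests on Spdef +/+ signals that were not called detected.

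The 4 subunits of GINS, which locks Cdc45 onto the ring, were all higher. Gins1 had 166, 188 and 223 in Spdef -/- and 53.7, 89.8 and 66.8 in Spdef +/+ mice (2.79-fold, adjusted p = 0.00258). Gins2, Present on no Spdef +/+ array, had 184, 184 and 183 in Spdef -/- and 82.5, 66.8 and 111 in Spdef +/+ mice (a fitted 2.16-fold, 95% interval 1.60 to 2.91, adjusted p = 0.00446). The Spdef -/- arrays were nearly equal to one another in Gins2, and the groups did not overlap in either gene. Gins4 differed by 1.57-fold (adjusted p = 0.0021) and Gins3 by 1.73-fold (adjusted p = 0.0159). The call of Gins3 was lost without Spdef +/+ replicate 2 (adjusted p = 0.053).

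Mcm8, which acts with Mcm9 in homologous recombination and is no part of the licensing ring, did not pass the test. Its signals were 69.5, 71.96 and 74.8 on the Spdef -/- arrays and 53.4, 67.6 and 46.1 on the Spdef +/+ arrays, a fold of 1.31 (95% interval 1.03 to 1.67, adjusted p = 0.0731). The Spdef -/- arrays lay above the others, though the highest Spdef +/+ array came close. Without that array, Spdef +/+ replicate 2, the adjusted p was 0.0177.

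**Figure D3:**
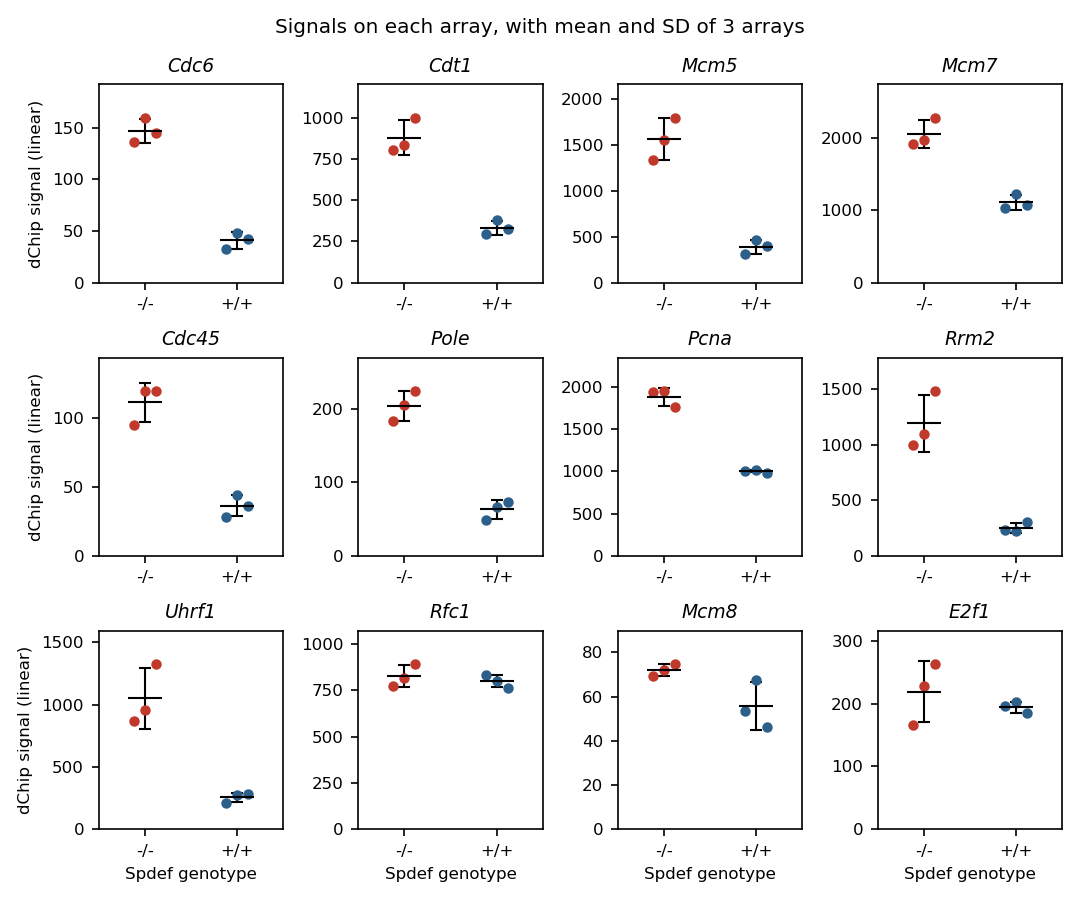
Linear dChip signals of 12 genes on each of 3 Spdef -/- arrays (red) and 3 Spdef +/+ arrays (blue), with mean and SD (black). The groups are apart in Cdc6, Cdt1, Mcm5, Mcm7, Cdc45, Pole, Pcna, Rrm2, Uhrf1 and Mcm8, and overlap in Rfc1 and E2f1. Mcm8, Rfc1 and E2f1 did not pass the test.

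Genes of the replicative polymerases and of primase were higher in 7 of 7 cases, with a median fold of 2.24. Polymerase alpha with primase lays down the RNA-DNA primers from which both strands start. Its catalytic subunit Pola1 had signals of 230.3, 219.6 and 269.7 in Spdef -/- mice, against 80.7, 84.9 and 99.2 in Spdef +/+ mice (2.72-fold, adjusted p = 0.000508). Its other subunits differed by similar amounts, at 2.24-fold in Pola2, 2.24-fold in Prim1 and 2.36-fold in Prim2 (adjusted p = 0.000689, 0.000711 and 0.000458). The Spdef -/- signals of Prim2, the iron-sulphur subunit of primase, were 144, 177 and 148, against 64.6, 66.2 and 66.7 on the tightly grouped Spdef +/+ arrays. None of the 4 genes overlapped between genotypes.

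Polymerase epsilon copies the leading strand. Its catalytic subunit Pole had 183, 205 and 224 in Spdef -/- and 48.9, 66.8 and 73.7 in Spdef +/+ epithelium (3.27-fold, 95% interval 2.47 to 4.33, adjusted p = 0.000842). A second probe set of Pole differed by 1.31-fold and did not pass. Pole2, its accessory subunit, had 169, 166 and 166 in Spdef -/- and 70.8, 73.5 and 83.4 in Spdef +/+ mice (2.21-fold, adjusted p = 0.000384). Pold1, the catalytic subunit of polymerase delta on the lagging strand, had 264, 284 and 414 in Spdef -/- mice against 164, 216 and 167 in Spdef +/+ mice (1.74-fold, adjusted p = 0.0207). Spdef -/- replicate 3 stood above its group in Pold1, and the call was lost without Spdef +/+ replicate 1, at an adjusted p of 0.0702, and without replicate 3, at 0.0657.

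The sliding clamp and its loader were less uniform, with 4 of 6 genes higher and a median fold of 1.61. Pcna, the ring that tethers polymerases to DNA, had signals of 1934, 1952 and 1761 in Spdef -/- mice and 1005, 1014 and 985 in Spdef +/+ mice (1.88-fold, 95% interval 1.65 to 2.13, adjusted p = 0.000539). Its arrays agreed closely within each genotype. Of the RFC loader, which opens the clamp, the small subunits Rfc4 and Rfc5 were higher. Rfc4 had 211, 198 and 236 in Spdef -/- against 95.95, 95.6 and 112 in Spdef +/+ epithelium (2.12-fold, adjusted p = 0.000842), and Rfc5 differed by 1.81-fold (adjusted p = 0.00196). Rfc2 was higher by 1.34-fold (adjusted p = 0.0141). Each of these also belongs to loader complexes other than the one with Rfc1.

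The large loader subunit Rfc1, which defines the loader of the replication fork, did not pass. Its signal was 771, 817 and 892 on the Spdef -/- arrays and 830.2, 800.4 and 764 on the Spdef +/+ arrays, which overlapped, and its fold was 1.03 (95% interval 0.90 to 1.19, adjusted p = 0.681). None of its 3 tested probe sets passed, with folds of 1.03 to 1.147, and the sign of its difference turned under 3 alternatives. Rfc3 had 194, 226 and 302 in Spdef -/- and 148, 165 and 181 in Spdef +/+ mice (1.44-fold, adjusted p = 0.0518), without overlap but short of the threshold. Without Spdef -/- replicate 1, the lowest of its group, the adjusted p of Rfc3 was 0.0297.

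RPA coats the single strands that the helicase exposes, and its subunits were all higher by modest amounts. Rpa2, the subunit phosphorylated under replication stress, had signals of 339, 352 and 337 in Spdef -/- mice and 212, 226 and 198 in Spdef +/+ mice (1.62-fold, adjusted p = 0.00141). Rpa1, the large subunit that holds most of the DNA contacts, differed by 1.42-fold (adjusted p = 0.0146), and Rpa3 by 1.47-fold (adjusted p = 0.0157). Groups did not overlap in any of the 3 genes. Without Spdef +/+ replicate 1 the calls of Rpa1 (adjusted p = 0.055) and Rpa3 (adjusted p = 0.0521) were lost.

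Okazaki fragments are the short pieces of the lagging strand, and both genes that finish them were higher by nearly the same fold. Fen1, the nuclease that trims displaced flaps, had signals of 524, 530.0 and 648 in Spdef -/- mice, against 214, 253 and 240.2 in Spdef +/+ mice (2.40-fold, adjusted p = 0.000699). Lig1, the ligase that seals the nicks, had 458, 486 and 568 in Spdef -/- and 200, 222 and 217 in Spdef +/+ epithelium (2.36-fold, adjusted p = 0.000539). In both, each Spdef -/- array was above 2 times the mean of the Spdef +/+ arrays.

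The 5 nucleotide supply genes were all higher, and they held the largest difference of the list. Rrm2 is the small subunit of ribonucleotide reductase, which makes deoxyribonucleotides, and its supply limits the enzyme outside S phase. It read 998, 1097 and 1484 on the Spdef -/- arrays, against 232, 224 and 304 on the Spdef +/+ arrays (4.69-fold, 95% interval 3.44 to 6.38, adjusted p = 0.000518). A second probe set Present on all 6 arrays gave 5.62-fold, and the third tested one was Present on no Spdef +/+ array. Rrm1, the large subunit, had 1287, 1131 and 1951 in Spdef -/- mice against 494, 497 and 576 in Spdef +/+ mice (2.72-fold, adjusted p = 0.00281). Spdef -/- replicate 3 was the highest array in both genes.

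Thymidine enters DNA by 2 routes, salvage through Tk1 and new synthesis through Tyms. Tk1, the cytosolic thymidine kinase of S phase, had 373, 391 and 537 in Spdef -/- and 105, 121 and 169.7 in Spdef +/+ epithelium (3.31-fold, adjusted p = 0.00182). Dut, which removes dUTP before it can be built into DNA, was higher by 1.73-fold (adjusted p = 0.000783), while its second probe set was at 0.937-fold and did not pass. Tyms, thymidylate synthase, was dim and Present on only 2 Spdef -/- arrays and 1 Spdef +/+ array. It had 45.9, 38.4 and 67.5 in Spdef -/- and 20.2, 38.2 and 22.7 in Spdef +/+ mice (1.89-fold, adjusted p = 0.0483). Its call was lost without Spdef -/- replicate 1 or 3 or without Spdef +/+ replicate 1 or 3 (adjusted p from 0.0908 to 0.139). Another probe set, which cannot tell Tyms from a pseudogene, read 254, 225 and 346 in Spdef -/- and 138, 170.1 and 166 in Spdef +/+ mice (1.72-fold, adjusted p = 0.0145).

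Both tested genes that restore chromatin after the fork were higher by more than 3-fold. Uhrf1 binds hemimethylated DNA and brings the maintenance methyltransferase Dnmt1 to it. It had signals of 867, 957 and 1327 in Spdef -/- mice, against 212, 271 and 280.1 in Spdef +/+ mice (4.09-fold, 95% interval 2.99 to 5.59, adjusted p = 0.000701). Chaf1b, the middle subunit of the complex that places new histones behind Pcna, had 132, 156 and 189.7 in Spdef -/- and 38.99, 55.3 and 47.2 in Spdef +/+ epithelium (3.37-fold, adjusted p = 0.000925). Dnmt1 itself, outside the list, was higher by 1.79-fold (adjusted p = 0.00064).

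E2f1, the one transcription factor of the list and an activator of many of the other genes, did not pass. Its tested probe set read 167, 228 and 264 on the Spdef -/- arrays and 196, 203 and 186 on the Spdef +/+ arrays (1.11-fold, 95% interval 0.84 to 1.47, adjusted p = 0.52). Its Spdef -/- arrays spanned both sides of the Spdef +/+ range. Another probe set was Present on 2 Spdef -/- arrays only and was therefore not tested. It read 73.5, 79.4 and 103 in Spdef -/- and 21.4, 37.4 and 41.3 in Spdef +/+ mice, without overlap, unlike the tested one.

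Probe sets other than the brightest mostly moved with it. The list had 99 probe sets, of which 74 were tested, and 65 of these were higher and 0 lower, beside 13.4% higher among all 21727 tested probe sets. Of 25 genes with several tested probe sets, 20 had all of them higher. The exceptions were Dut, Pole, Rfc3 and Tyms, with 1 of 2 higher each, and Rfc1, with 0 of 3. In Mcm3, with 4 tested probe sets, folds ran from 2.40 to 3.5, and in Uhrf1, with 3, from 2.53 to 4.09. Probe sets whose IDs end in x_at or s_at can also bind related transcripts.

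The arrays of a genotype did not stand equally far apart. Relative to each gene's mean over the Spdef +/+ arrays, the 42 genes had medians on the log2 scale of 1.08, 1.11 and 1.26 on Spdef -/- replicates 1, 2 and 3, and of -0.11, 0.05 and 0.03 on Spdef +/+ replicates 1, 2 and 3. Spdef -/- replicate 3 was the highest Spdef -/- array in 33 of the 42 genes, beside 38.7% of all tested genes. The lowest Spdef -/- array was replicate 1 in 29 of the 42, beside 27.2% of all tested genes. Spdef +/+ replicate 1 was the lowest Spdef +/+ array in 27 of the 42, beside 23.1% of all tested genes. Without Spdef -/- replicate 3, 37 genes were higher and the median log2 difference was 1.08. Without Spdef +/+ replicate 1, 34 were higher and the median was 1.09. Spdef -/- replicate 3 also read low for the Y-linked Eif2s3y, at 498, 301 and 57.9 on the Spdef -/- arrays and 566, 458 and 522 on the Spdef +/+ arrays, although each pool is labelled as holding a male. Its part in the result was not tested beyond the values without that array.

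**Figure D4:**
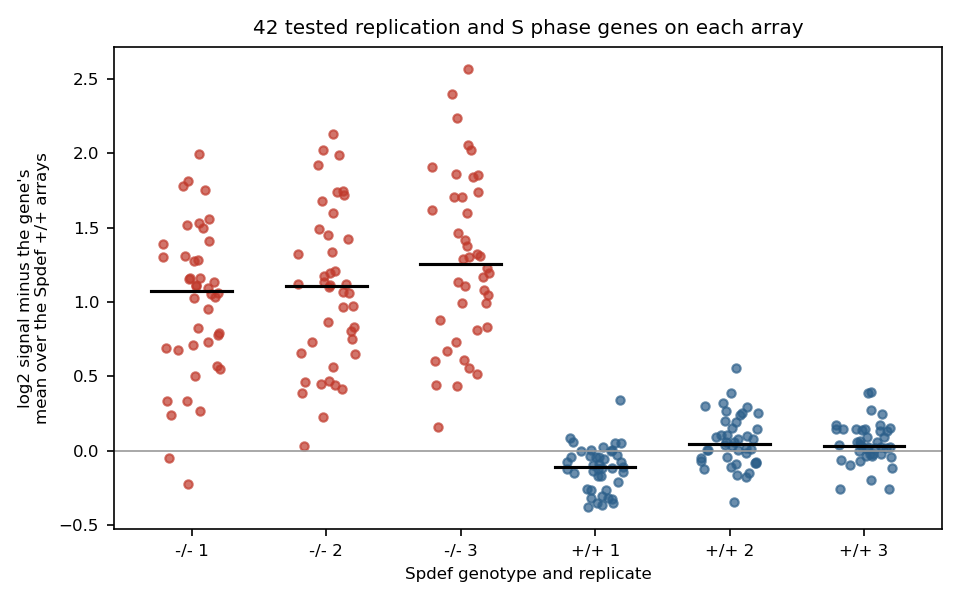
Log2 signal of each of the 42 tested replication and S phase genes (points) on each array, relative to the gene's mean over the Spdef +/+ arrays, with the median of each array (black line). The medians are 1.08, 1.11 and 1.26 on the Spdef -/- arrays and lie between -0.11 and 0.05 on the Spdef +/+ arrays.

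Other genes of the replication fork and of origins, outside the list, were read next. Of 29 tested, 18 were higher and 3 lower, beside 15.8% higher and 24.0% lower among all tested genes. Their median fold was 1.59. Hells, a chromatin remodeller needed for DNA methylation, had signals of 414, 438 and 525 in Spdef -/- mice, against 83.00, 116 and 107 in Spdef +/+ mice (4.51-fold, adjusted p = 0.000303). Clspn, the adaptor that couples a stalled fork to the checkpoint kinase Chek1, was higher by 4.47-fold and Tipin, its partner at the fork, by 2.33-fold. Topbp1, which helps fire origins and activates the checkpoint kinase Atr, was higher by 1.99-fold (adjusted p = 0.000594).

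The other subunits of the origin complex and of polymerase delta, named here after their values were seen, were not higher. Orc3 was lower, with 269, 228 and 242 in Spdef -/- against 304, 308 and 287 in Spdef +/+ epithelium (0.82-fold, adjusted p = 0.0435), and so was Orc5 (0.791-fold, adjusted p = 0.0129). Orc2 and Orc4 read 0.991-fold and 0.914-fold and did not pass. Mcmbp, which binds MCM subunits in place of Mcm2, was lower at 0.742-fold (adjusted p = 0.0195). No gene of this group was lower without Spdef +/+ replicate 1, or with arrays centred on bacterial controls. Beside Pold1, the accessory subunits Pold2, Pold3 and Pold4 did not pass, at 1.15-fold, 1.04-fold and 0.904-fold. Both subunits of the Dbf4-dependent kinase that fires licensed origins were higher, Dbf4 by 4.14-fold and Cdc7 by 3.35-fold (adjusted p = 0.000679 and 0.00182).

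Of 17 other nucleotide supply genes, 10 were higher and 2 lower, beside 15.8% higher and 24.0% lower among all tested genes. Their median fold was 1.37. Ctps, which makes CTP, was higher by 1.97-fold (adjusted p = 0.000378), and Shmt1, of the folate cycle that Tyms draws on, by 1.82-fold (adjusted p = 0.00105). The genes that were lower, a smaller share than among all tested genes, are both counterparts of listed genes used outside S phase. Rrm2b, the small reductase subunit induced by p53 and used in resting cells, had signals of 242, 243 and 238 in Spdef -/- mice and 478, 409 and 453 in Spdef +/+ mice (0.541-fold, adjusted p = 0.000778), opposite to Rrm2. Tk2, the mitochondrial thymidine kinase, named after its values were seen, had 306, 318 and 239.8 in Spdef -/- and 447, 451 and 487 in Spdef +/+ mice (0.619-fold, adjusted p = 0.00637), opposite to Tk1. In both, every Spdef -/- array lay below every Spdef +/+ array, which also held in 32.7% of all tested genes.

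Among 20 tested cyclins, kinases and E2F proteins of G1 and S, 11 were higher and 2 lower, beside 15.8% and 24.0% of all tested genes. E2f8, a repressor of the E2F family that is itself an E2F target, had 278, 268 and 349 in Spdef -/- and 54.9, 56.2 and 66.5 in Spdef +/+ epithelium (5.02-fold, adjusted p = 0.000155). Skp2, of the ligase that degrades the inhibitor p27, and its cofactor Cks1b were higher by 2.32-fold and 3.05-fold. Ccnd2, a G1 cyclin, was lower, with 1805, 1993 and 1645 in Spdef -/- against 3873, 3824 and 4712 in Spdef +/+ mice (0.439-fold, adjusted p = 0.000897). The other D-type cyclins, looked up after these values were seen, did not pass, at 0.941-fold in Ccnd1 and 1.06-fold in Ccnd3.

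Of 13 tested inhibitors of S phase entry, 7 were higher and 2 lower, beside 15.8% higher and 24.0% lower among all tested genes. Cdkn1a, which encodes p21 and binds Pcna as well as cyclin kinases, had signals of 2149.9, 2192 and 1747 in Spdef -/- mice, against 929.8, 782 and 934 in Spdef +/+ mice (2.30-fold, adjusted p = 0.000991). Cdkn1c, which encodes p57 of cells that have left the cycle, was lower, with 86.3, 101 and 99.2 in Spdef -/- and 219, 256 and 321 in Spdef +/+ mice (0.364-fold, adjusted p = 0.00102). Rbl1 and Cdkn2c were higher by 1.63-fold and 1.43-fold. This count depended on 1 array, since without Spdef +/+ replicate 1 only 3 of 13 were higher and 1 lower.

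Genes of mitosis, the step after replication, were higher in 20 of 20 cases, beside 15.8% of all tested genes, with a median fold of 3.51. Top2a, the topoisomerase that untangles sister chromosomes, had signals of 1455, 1547 and 2089 in Spdef -/- mice and 407, 364 and 469.6 in Spdef +/+ mice (4.07-fold, adjusted p = 0.000492). Cdk1, the mitotic kinase, and its cyclin Ccnb1 were higher by 4.26-fold and 3.26-fold (adjusted p = 0.000537 and 0.000497). Kif20a, a kinesin of cytokinesis, had 117, 109 and 134 in Spdef -/- and 35.7, 33.7 and 44.7 in Spdef +/+ mice, was Present on no Spdef +/+ array and so entered the count through the Spdef -/- arrays alone. Of 16 tested genes of S phase repair and fork protection, 12 were higher and 0 lower, beside 15.8% and 24.0% of all tested genes. One of the 12, Fancd2, picked out for its detection calls, was detected on no Spdef +/+ array. Among the 12 were the nuclease Exo1 (4.96-fold) and the uracil glycosylase Ung (2.67-fold, adjusted p = 0.00078).

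**Figure D5:**
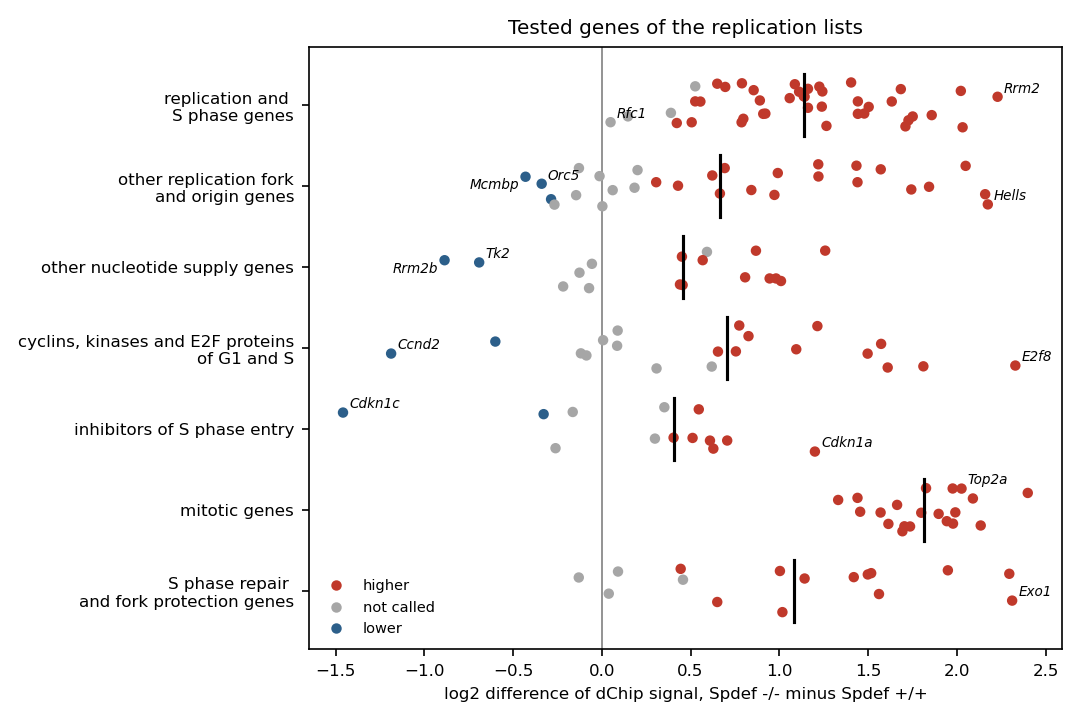
Log2 difference of signal, Spdef -/- minus Spdef +/+, of each tested gene (points) of the replication and S phase list and of 6 other gene lists, with the median of each list (black line). Red genes were higher, blue genes lower and grey genes not called. Rrm2b, Ccnd2 and Cdkn1c are among the genes that were lower.

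Markers of other cell types were read for the same arrays, on which 15.8% of all tested genes were higher and 24.0% lower. Of the basal epithelium, where cycling cells lie, 2 of 7 markers were higher and 2 lower, with summed signals of 55886 to 57598 on the Spdef -/- arrays and 51271 to 52039.9 on the Spdef +/+ arrays. All 3 tested neutrophil markers were higher, with summed signals of 3559 to 8862 in Spdef -/- and 226 to 276 in Spdef +/+ mice, while Csf3r, 1 of the 3, was Present on Spdef -/- arrays only and Cxcr2, Mpo and Elane on no array. Of B and plasma cell markers, 2 of 3 tested were higher, at 823 to 1609 in Spdef -/- and 244 to 575 in Spdef +/+ mice, and Cd79a and Mzb1 were Present on no array. Neither tested marker of germinal centre B cells, which divide rapidly, passed, with sums over the 5 measured of 1341 to 1958 in Spdef -/- and 1483 to 2075 in Spdef +/+ mice, most of it from Bcl6, in which the groups overlapped. S1pr2 had 124, 106 and 98.5 in Spdef -/- and 80.9, 83.7 and 95.8 in Spdef +/+ mice, without overlap but short of the threshold (adjusted p = 0.061). Rgs13, Present on 1 Spdef -/- array and therefore not tested, had 47.8, 26.6 and 70.8 in Spdef -/- and 7.49, 8.51 and 11.3 in Spdef +/+ mice, also without overlap. Mef2b was Present on no array.

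Among T and NK cell markers, 2 of 4 tested were higher and 1 lower. Sums over the 7 measured were 346 to 424 in Spdef -/- and 427 to 481 in Spdef +/+ mice. The lower one, Gzma, read 59.8, 59.9 and 94.1 in Spdef -/- and 219, 219.5 and 214 in Spdef +/+ mice. Gzma made up much of the Spdef +/+ sums. Both higher ones, Cd3d and Cd3g, were Present on Spdef -/- arrays only, and Cd3e and Cd4 on no array. Of macrophage and dendritic cell markers, 1 of 6 was higher and 1 lower, with sums of 2449 to 3007 in Spdef -/- and 2019.6 to 3403 in Spdef +/+ mice. Stromal markers were lower in 4 of 5 cases, with sums of 16144 to 18912 in Spdef -/- and 25686 to 38655 in Spdef +/+ mice, and endothelial markers were lower in 1 of 3, with sums over the 4 measured of 506 to 559 in Spdef -/- and 559.8 to 751 in Spdef +/+ mice. None of 3 corneal markers passed, with sums of 13803 to 16732 in Spdef -/- and 18505 to 23035 in Spdef +/+ mice, and neither did the 2 tested gland markers, with sums over the 3 measured of 8329 to 9407 in Spdef -/- and 7460.0 to 12192 in Spdef +/+ mice. Summed neutrophil signal was highest on Spdef -/- replicate 1, where S100a8 (3041) and S100a9 (5319) made up most of it. Of the neutrophil markers Present on no array, Spdef -/- signals lay above Spdef +/+ in Cxcr2, below in Mpo, and overlapped in Elane. The part of these cell types in the replication result was not tested.

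The authors' deposited table of 153 probe sets that met their own criteria, 43 of them with positive fold changes, holds 3 entries of the listed genes. It gives Mcm5 a fold change of 3.76 at one probe set and of 4.05 at another, with p values of 0.002798 and 0.007513. The authors' deposited table gives Rrm2 a fold change of 7.14, with a p value of 0.000116. This is at the Rrm2 probe set that was Present on no Spdef +/+ array, with signals there of 12.5, 18.2 and 19.5. It is not the probe set that stood for Rrm2 above. The same deposited table of the authors also lists Hells, Clspn, Chtf18, E2f8, Exo1 and Aurkb, with fold changes of 4.35 to 5.05. Of these, Chtf18 was Present on 2 Spdef -/- arrays only and was not tested here.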

How the data were processed

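The members and all gene lists were chosen with earlier results of these data known. Affymetrix arrays held RNA of laser-captured conjunctival epithelium from 6 µm sections. The deposited intensity values are dChip model-based signals, 1 per probe set and array, normalized by the authors on a linear scale, per the file headers. The sources used here give no normalization method, background step or detection-call algorithm for them. The authors' deposited table gives fold changes, a score here, with unadjusted p-values.

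Probe sets were named through RefSeq (GRCm38.p6): 36909 of 45101 took 1 symbol, for 18096 genes, 585 matched several genes and 7543 had none. Signals were floored at 1 and put on the log2 scale. Named probe sets Present on at least 3 of 6 arrays were tested, the one of highest mean log2 signal per gene (11899 genes), with limma 3.58.1 in R 4.3.3, two-sided, genotype as the 1 term, Benjamini-Hochberg adjustment over all genes and a threshold of 0.05. The number of arrays limits the precision, and the median residual SD was 0.139 on the log2 scale. On simulated data for 11899 genes, 44 of 100 genes changed 1.5-fold and 83 of 100 changed 2-fold were recovered, with 4 false calls. Only these genes were changed, all genes were set as Present on every array, and noise was drawn independently. In the real data far more genes were called, which shifts the adjusted threshold, so these figures do not give the recovery or false calls there. Promoters were searched with Python 3.11.15. Genes named are Spdef, every listed gene and, in each of 6 other lists, the 4 called genes of smallest p, beside those said to be chosen later; a few of these genes are not reported here. Alternatives covered the filter, scaling, floor, model, probe set choice, single arrays, the replicate number as a block and a plain two-sample t-test.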

Additional observations from a re-analysis of the deposited data

How the results depend on the processing

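Of the 42 tested genes, between 34 and 40 were higher under the alternatives that used limma other than bacterial centring, and 0 were lower under any. The median log2 difference ran from 0.94 (pseudocount of 32) to 1.21. Leaving out 1 array gave 34 to 38 higher genes, with the lowest count without Spdef +/+ replicate 1. A plain two-sample t-test was also run on the log2 values used here, which does not repeat the authors' own procedure. With a fold of at least 3 and an unadjusted p under 0.01 it called 9 of the genes higher, beside 197 genes in all. The authors' table has 43 probe sets with positive fold changes, 3 entries of the table being of listed genes, so the 2 differ. By the plain t-test with no minimum fold, 33 of the 42 were higher at an unadjusted p under 0.01, and 34 at an adjusted p under 0.05 (Benjamini-Hochberg). The shares of all tested genes at these thresholds are not given here, so these counts have no background beside them. With each array centred on bacterial controls, chosen after seeing the data, 29 genes were higher, and the series had 682 genes higher and 1417 lower, in place of 1878 and 2850. Without Spdef +/+ replicate 1 the series had 1277 higher and 1850 lower. Over single genes, 671 of 708 values kept direction and side of the threshold, 22 values (of 10 genes) lost the call, 12 (of Mcm8 and Rfc3) gained it, and 3 (of Rfc1) turned in sign, to -0.016 with array weights, -0.04 with bacterial centring and -0.007 without Spdef -/- replicate 3 (-0.007 to 0.098 over the arrays left out). Among the other lists, called genes numbered 9 for inhibitors of S phase entry, but 5 without a filter, 2 with bacterial centring and 4 to 9 without 1 array. Repair genes gave 7 in place of 12 under a filter on mean signal, where 11 were tested. With bacterial centring, other fork and origin genes gave 13 in place of 21, and other nucleotide supply genes 7 in place of 12. The cause was not tested, beyond the fewer genes tested under that filter.

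Genotypes share replicate numbers 1 to 3. The labels do not say whether these numbers pair the arrays. Deviations of same-numbered arrays correlated at -0.01, -0.09 and -0.08 across genes. These values show no sign of pairing, but so few arrays cannot exclude it. With the replicate number as a block, 37 of the 42 genes were higher and 0 lower, beside 1473 and 2200 in the series, and no array correlated best with its own number. Signals of genes Present on no Spdef +/+ array are limited by detection there.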

Other observations

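Several replication genes share a promoter region with a gene on the other strand, and those partners were compared after the values above were known. Gene starts from RefSeq assembly GRCm38.p6 were used only to find neighbours, on opposite strands, that start within 1000 bases of each other or overlap by up to 200. Of the listed genes, 4 had such a tested partner, and none of the partners was higher in Spdef -/- mice, beside 177 of 1170 genes in such pairs over all tested genes (15.1%). Ufd1, which works with the p97 segregase and lies beside Cdc45, read 523, 559 and 587 on the Spdef -/- arrays, against 652, 595 and 511 on the Spdef +/+ arrays (0.953-fold, adjusted p = 0.65, limma), which overlapped. Smyd4, beside Rpa1, was lower, with 66.8, 68.2 and 55.6 in Spdef -/- and 88.3, 95.6 and 93.2 in Spdef +/+ mice (0.685-fold, adjusted p = 0.00757). Among all genes in such pairs, 17.6% were lower. Tmem258, beside Fen1, was at 0.827-fold and short of the threshold (adjusted p = 0.0535), and Ap4m1, beside Mcm7, at 1.54-fold (adjusted p = 0.115). Ap4m1 read 83.8, 86.4 and 152 in Spdef -/- and 51.3, 74.4 and 78.8 in Spdef +/+ mice, without overlap. With 4 partners, the counts are too small to set against the shares over all such pairs.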
